A study of Mus musculus with 125 samples.

Results

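Late-closing peaks are described here, 169 regions of open chromatin in mouse leukaemia lines. They were less accessible at the later time point of co-culture with natural killer (NK) cells than in leukaemia cells alone. This held in lines C and D, and not in both of the lines A and B. The name refers to the time point of the selection, which did not ask whether a fall was already present earlier. They were chosen by their own readout, from 110249 consensus peaks on chromosomes 1 to 19 with a mean CPM (counts scaled to the total of the library) of 1 or more over all libraries, out of 256400 consensus peaks in all. For each line and arm the mean of log2(CPM + 0.5) was taken, and a peak was selected when NK co-culture at time point 2 (TP2) minus B-ALL alone was -0.58 or less in both C and D and was not so in both A and B. By the same threshold, 202 peaks closed in C and D, 304 closed in A and B, and the 33 that closed in all 4 lines were left out of the selection. The differences at TP2 in C and D are therefore the selection itself and are given as a description.

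The assay was ATAC-seq, where Tn5 transposase cuts and tags open DNA, applied to 71 libraries of C/D and 54 libraries of A/B, all of them B-cell leukaemia (B-ALL) cells. All lines came from the bone marrow of wild-type C57BL/6 mice, were transformed with the BCR/ABLp185 fusion kinase and carried a DNA barcode library with GFP. Lines C and D descend from 1 parental line and A and B from another, so C is not independent of D nor A of B, and each line is a population of many barcoded clones. The 3 arms were leukaemia cells without NK cells, called B-ALL alone and sampled at time point 1 (TP1), and leukaemia cells given IL-2-activated mouse NK cells, sampled at TP1 or at TP2. Every culture held IL-2, fresh NK cells were added at re-challenge, and the GFP+ fraction was sorted; the genotype of the NK cells is not given in the labels. The labels put TP1 on day 4 and TP2 on day 10, but on days 6 and 16 in experiment 9.7, and the study's methods give later days for the second harvest. Libraries formed 41 groups of 3 and 1 group of 2, in 8 combinations of line and experiment in C/D and 6 in A/B. Since B-ALL alone was sampled at TP1 only, length of culture and NK exposure cannot be told apart at TP2, and in sorted bulk cells a smaller share of cells with an open region and less opening per cell cannot be told apart either.

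Libraries held 3083547 to 13580746 counts in consensus peaks, with a median of 7738029. In 2 groups of line C, 2 of the libraries agreed within sampling noise and were counted as 1 sample, which left 69 samples in C/D and 54 in A/B. At the promoter of the B-ALL marker Cd79a the C/D libraries had a median of 71.0 CPM in B-ALL alone, 74.8 CPM at NK TP1 and 85.7 CPM at NK TP2, and at that of Pax5 54.5, 58.7 and 61.6 CPM in the same order. The summed signal of the NK markers Klrb1c, Prf1, Gzmb and Eomes lay between 18.64 and 36.48 CPM in C/D at TP2, 19.96 and 36.7 CPM at TP1 and 19.36 and 35.72 CPM in B-ALL alone, and Ncr1 and Klrk1 had no consensus peak within 3 kb of their start. Of these genes Gzmb had medians of 3.14 CPM in B-ALL alone, 3.96 at TP1 and 4.25 at TP2 in C/D, with highest libraries of 5.38, 6.15 and 10.99 CPM, and 2.03, 3.75 and 2.64 CPM in A/B, and its part in the results was not tested.

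Open chromatin in a B-ALL cell marks promoters and enhancers held open by transcription factors. BCR/ABL signals through STAT5, which binds the palindrome TTCNNNGAA, and PU.1, an ETS factor of myeloid and early B cells, binds GAGGAAGT. NK cells kill target cells and release interferon gamma, whose response genes open in cells that meet it. In developing B cells the immunoglobulin heavy-chain locus (Igh) joins a D segment to a J segment and then a V segment, and the joined segments differ between clones.

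The sequences below are shown as examples of the late-closing peaks with a STAT motif, in capitals, within the central 500 bp: in an intron of Ros1, in an intron of the non-coding gene Gm41206 and in an intron of Rasgrp3. They are from the plus strand of GRCm38.p6 as given by RefSeq.
Ros1 intron, chr10:52174333-52174421: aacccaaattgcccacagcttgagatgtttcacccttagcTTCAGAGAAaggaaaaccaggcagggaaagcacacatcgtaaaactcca
Gm41206 intron, chr14:72822387-72822475: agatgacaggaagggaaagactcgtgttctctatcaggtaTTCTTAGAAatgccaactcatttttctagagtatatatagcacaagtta
Rasgrp3 intron, chr17:75442750-75442838: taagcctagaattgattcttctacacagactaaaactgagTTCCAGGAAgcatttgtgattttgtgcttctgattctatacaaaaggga

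The next 2 sequences, again from the plus strand, hold the PU.1 motif on the other strand, so that the capitals read as its reverse complement. They lie in peaks within Bend5 and within Rbms3.
Bend5 intron, chr4:111442568-111442655: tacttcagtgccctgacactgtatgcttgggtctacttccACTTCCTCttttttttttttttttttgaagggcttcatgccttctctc
Rbms3 intron, chr9:117453175-117453262: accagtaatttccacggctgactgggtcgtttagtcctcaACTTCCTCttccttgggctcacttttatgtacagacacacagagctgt

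The D segments of Igh within 2 late-closing peaks are shown on the minus strand, on which the locus is transcribed, because one of the peaks had the deepest fall and the other went in opposite directions between lines. The 17 bases of each segment are in capitals, preceded by TACTGTG and followed by CACAGTG, the heptamers at which recombination cuts.
Ighd2-4, chr12:113470654-113470750: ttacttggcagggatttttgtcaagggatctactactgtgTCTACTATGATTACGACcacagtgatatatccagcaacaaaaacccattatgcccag
Ighd2-3, chr12:113475360-113475456: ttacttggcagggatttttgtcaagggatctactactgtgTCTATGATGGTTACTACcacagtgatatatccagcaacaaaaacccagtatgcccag

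The RefSeq promoter of Lgr4, a receptor for R-spondins, is shown on its plus strand as an example of the CG-rich late-closing peaks. Its 18 CG dinucleotides are in capitals. The whole Lgr4 peak had 6.91 CG per 100 bp, against a median of 0.94 over the late-closing peaks. Those at Marcks, 5730522E02Rik, Adgrl3 and Ggh had 6.97, 6.75, 6.64 and 6.15. The central 500 bp of the Lgr4 peak held 74 CG dinucleotides, against a median of 5 over the late-closing peaks and 6 over all tested peaks.
Lgr4 promoter, chr2:109917397-109917696: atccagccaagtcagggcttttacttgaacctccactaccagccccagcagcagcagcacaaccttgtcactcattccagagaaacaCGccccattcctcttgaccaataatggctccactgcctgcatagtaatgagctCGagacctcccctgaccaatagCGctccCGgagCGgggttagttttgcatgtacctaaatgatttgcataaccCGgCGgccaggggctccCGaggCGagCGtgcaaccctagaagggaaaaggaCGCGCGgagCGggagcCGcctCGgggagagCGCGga

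The fall at TP2, on which the peaks were selected, had a median of -0.71 in C and -0.76 in D on the log2(CPM + 0.5) scale, against 0.03 and -0.03 over all tested peaks in the same lines. In A the median was -0.08 and in B -0.36. A peak at the threshold in A alone was allowed, and there were 11, as was one at the threshold in B alone, and there were 34, while 124 reached it in neither. By combination, 128 of the 169 peaks were below 0 in 8 of 8 C/D combinations, 36 in 7, 3 in 6 and 2 in 5. The deepest medians were -1.12 in line D in experiment 9.6 and -1.04 in line C in experiment 9.7, and the shallowest was -0.43 in line C in experiment 9.5.1. The value of line D in experiment 9.6 includes a TP2 library, replicate 2, that differed from the rest of its group, as described below. At TP1 the C/D medians reached from -0.57 in line D of experiment 9.6.1 to -0.03 in line C of experiment 9.5.1.

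**Figure D1:**
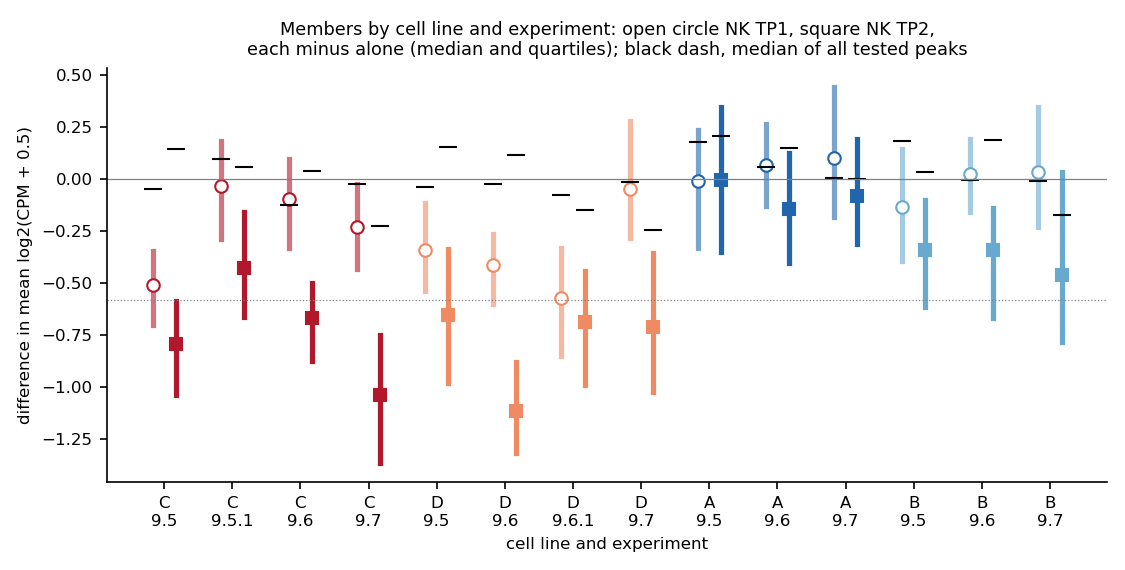
Difference in mean log2(CPM + 0.5) from B-ALL alone (y axis) for the 169 late-closing peaks in each combination of cell line and experiment (x axis), as medians (open circles NK TP1, squares NK TP2) with quartiles, and medians over all tested peaks as black dashes. The dotted line is the selection threshold of -0.58. The TP2 medians lie between -0.43 and -1.12 in C and D, on which the peaks were selected, and between -0.46 and 0.00 in A and B.

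Just inside the threshold lay the peak at Lgr5 (chr10:115585585-115588434, -0.71 in C and -0.58 in D), a peak between genes on chromosome 8 (chr8:42209598-42211182, -0.58 and -0.58) and one 37983 bp from the start of Trp63 (chr16:25839256-25840542, -0.58 and -0.84). Just outside lay a peak on chromosome 15 (chr15:15759397-15759943, -0.70 in C and -0.58 in D), one near Meis2 (chr2:115855115-115856416, -0.58 and -0.97) and one near Klhl32 (chr4:24659879-24661269, -0.58 and -0.75). The values on either side differ in the third decimal.

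Whether the fall recurred was read in experiments that the choice had not used. The rule was applied leaving out 1 experiment at a time, and the peaks then found were read in the experiment left out. In line D of experiment 9.6, 101 of such peaks (80.8%) were at -0.58 or less, against 6.94% of all tested peaks. Replicate 2 of that TP2 group differed from replicates 1 and 3. The authors called 101211 broad peaks in it, against 50874 and 45600, and its part in this share was not tested. In line C of experiments 9.5 and 9.6 the shares were 41.7% and 47.2%, against 3.34% and 1.297% of all tested peaks. Line C of experiment 9.5.1 had the lowest share, 16.5% of 278, against 1.49%. In line D of experiments 9.5 and 9.6.1 they were 26.0% of 235 and 50.8% of 177, against 2.65% and 14.5%. In experiment 9.7, whose TP2 was day 16, the share was 59.2% of 157 in line C, against 20.4%, and 32.5% in line D, where 29.4% of all tested peaks also reached the threshold. The share thus stood above the background in all 8 combinations, but close to it in line D of experiment 9.7. Experiments of a line share its founding cells, so they are not independent samples of C and D.

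**Figure D2:**
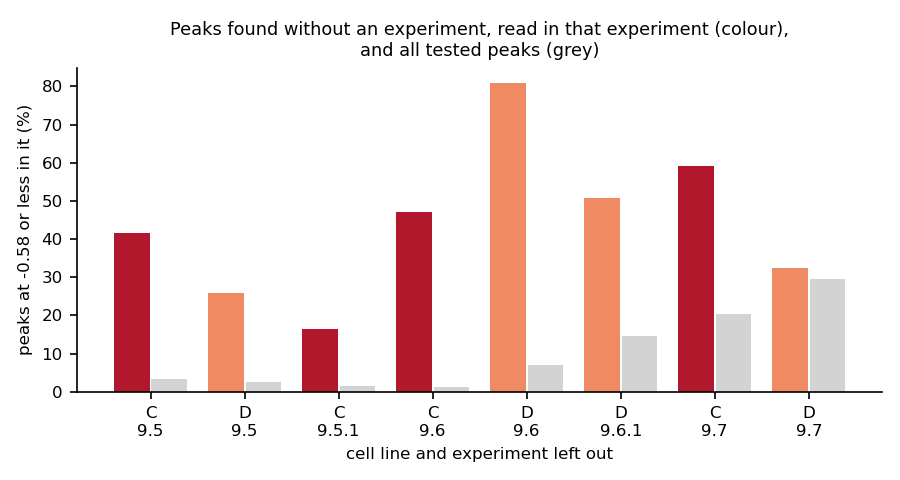
Share of peaks (y axis, %) at -0.58 or less for NK TP2 minus B-ALL alone in an experiment that was left out of the selection, by cell line and experiment (x axis). Coloured bars are the peaks found without that experiment (red C, orange D) and grey bars all tested peaks. The coloured bars run from 16.5% to 80.8%, and in line D of experiment 9.7 the grey bar (29.4%) nearly reaches the coloured one (32.5%).

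In the edgeR quasi-likelihood fits a peak was called when its log2 fold change reached 0.58 in size and its p, adjusted by Benjamini-Hochberg over all 110249 tested peaks, was at most 0.05, and every late-closing peak was tested. In the contrast of the selection, C/D at TP2 against B-ALL alone, 168 of 169 were called lower and 0 higher, beside 0.967% and 1.2% of all tested peaks, and nothing is read from this. Single libraries still overlapped widely. Every NK TP2 library lay below every B-ALL alone library for 3 late-closing peaks in line C (0.0145% of all tested peaks), for 5 in line D (0.0154%) and for 0 over the libraries of C and D together. The 3 in line C lay near D830013O20Rik, near AC144861.1 and in Bend5. The 5 in line D lay in Ros1, near Trp63, near AC134555.1, near Gm13484 and in Zfhx4, and both sets were singled out after their values were seen.

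The next question was how much of the fall was present at TP1. The NK TP1 libraries did not enter the selection, but the B-ALL alone libraries did and are shared with it. In C/D at TP1 against B-ALL alone, 14 late-closing peaks were called lower, where 0.268% of all tested peaks were, and 1 was called higher, where 1.59% were. The median log2 fold change was -0.28, against -0.03 over all tested peaks. Without experiment 9.6 the numbers were 22 lower and 2 higher, and without experiment 9.7 they were 21 and 2. In C/D at TP2 against NK TP1, which shares the TP2 libraries with the selection, 94 were called lower and 0 higher, beside 0.716% and 1.15% of all tested peaks, with a median of -0.61 against 0.02. Every one of the 169 fold changes was below 0 in edgeR, so 0 were higher at an unadjusted p of 0.05 too, and DESeq2 called 92 lower and 0 higher. The 94 became 52 without replicate 2 and 54 without experiment 9.6. Values of single peaks in these 2 C/D contrasts, given below, share libraries with the selection and are a description.

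Broad peaks, called by the authors in each library on its own, come from the same reads as the counts, so their numbers at TP2 and in B-ALL alone of C/D follow from the selection and are a description. A median of 113 of 169 late-closing peaks was overlapped by a broad peak in B-ALL alone libraries of C/D, 100 in NK TP1 libraries and 61 in NK TP2 libraries. The NK TP2 libraries ranged from 24 to 85 and the B-ALL alone libraries from 71 to 150, so the arms overlapped between 71 and 85. Over all tested peaks the median share was 39.6% in B-ALL alone, 43.8% at TP1 and 40.6% at TP2, beside 66.9%, 59.2% and 36.1% of the late-closing peaks. In A/B the medians were 73.5, 79 and 53 peaks in the same order of arms. As shares these were 43.5%, 46.75% and 31.4%, beside 34.0%, 39.5% and 35.3% of all tested peaks. In each pair of lines the TP2 share of the late-closing peaks was thus below that of all tested peaks but near it. Of the 169, 2 had a broad peak in every library.

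**Figure D3:**
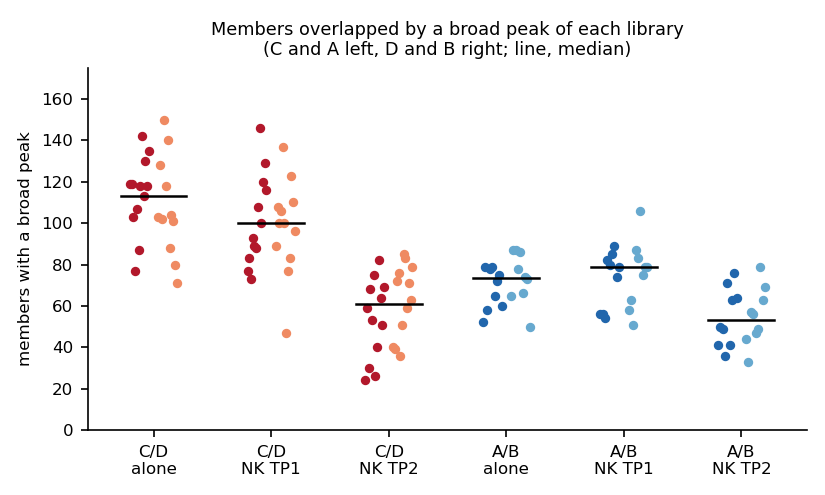
Number of the 169 late-closing peaks (y axis) that a broad peak of the library overlapped by 1 bp or more, for each library (points; red C, orange D, dark blue A, pale blue B) by pair of lines and arm (x axis), with medians as lines. Medians in C/D are 113 in B-ALL alone, 100 at NK TP1 and 61 at NK TP2, and in A/B 73.5, 79 and 53.

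In A/B the contrast the selection used least is TP1 against B-ALL alone. There 6 late-closing peaks were called lower and 1 higher, beside 1.01% and 4.91% of all tested peaks, and the median was -0.03 against -0.01. With column sums in place of TMM scaling 4 were lower and 3 higher, without experiment 9.6 there were 13 and 4, without experiment 9.7 14 and 0, and without replicate 3 8 and 3. The balance turned without experiment 9.5, with 3 lower and 6 higher and a median of 0.05, and without replicate 2, with 4 and 5 and a median of 0.04. At TP2, which the exclusion in the selection used, 37 were called lower and 2 higher, beside 1.27% and 2.96%, with a median of -0.34. Against NK TP1, 16 were lower and 1 higher at TP2 in A/B, beside 1.23% and 0.16%. There were 5 lower and 2 higher without experiment 9.6, 24 and 1 without experiment 9.5, 9 and 0 without replicate 1 and 29 and 1 without replicate 2. Whether the change from B-ALL alone to NK TP2 at these peaks differed between C/D and A/B was not tested, since the selection fixed it.

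Late-closing peaks were also compared between the pairs of lines within the NK TP1 arm, whose libraries entered the selection only through the mean CPM. C/D was higher than A/B at 67 peaks and lower at 24, beside 6.9% and 3.8% of all tested peaks, and the median difference was 0.42 against -0.04. This sets 1 parental line against another, and a peak had to be open in C and D for its fall to reach the threshold and could pass the mean CPM of 1 through C/D alone, so the counts and the higher values are a description from which nothing is read. Among the 67, the highest values were near Gm8996 on chromosome 14 (chr14:57271221-57271999, 2.21 ± 0.13 SE), in Cfap299 on chromosome 5 (chr5:98691211-98692739, 2.2 ± 0.15), in Neat1 (2.12 ± 0.21), in Kcnk9 (1.78 ± 0.09) and in Lix1 (chr17:17441530-17442788, 1.73 ± 0.17). In A/B the TP1 medians near Gm8996, in Cfap299, in Neat1 and in Lix1 were 0.792, 0.850, 0.976 and 0.693 CPM, under the minimum, against 3.97, 3.52, 2.79 and 2.22 CPM in C/D. The lowest of the 24 lay at Lgr4 (-2.25 ± 0.11, adjusted p = 1.46e-25), in 5430440P10Rik (chr14:105426639-105429049, -2.10 ± 0.12), at 5730522E02Rik (chr11:26209586-26211155, -1.99 ± 0.11), in Ros1 (-1.96 ± 0.12) and in Rbms3 (chr9:117452645-117453828, -1.92 ± 0.11).

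Ros1, which encodes a receptor tyrosine kinase, held 2 late-closing peaks. The intronic peak that holds the first printed STAT sequence (chr10:52172522-52175965) had a median of 9.76 CPM in B-ALL alone of C/D (lowest 1.86, highest 14.4), 5.21 CPM at NK TP1 (1.11 to 9.12) and 2.83 CPM at NK TP2 (1.48 to 4.99). In A/B it was more open, at 28.9 CPM in B-ALL alone (23.6 to 40.3), 19.3 at TP1 (12.1 to 36.5) and 20.9 at TP2 (12.97 to 36.9). In B-ALL alone of line C the experiments stood apart, with medians of 3.64 and 2.88 CPM in 9.5 and 9.5.1 and of 11.2 and 10.3 CPM in 9.6 and 9.7. It fell at TP1 in C/D by 0.81 ± 0.09 (SE) on the log2 scale (edgeR adjusted p = 2.43e-10) and in A/B by 0.65 ± 0.10 (adjusted p = 5.34e-07), and in A/B the change was under 0.58 with column sums, a loess offset, without replicate 1 or without experiment 9.5. The C/D contrast shares its B-ALL alone libraries with the selection. The other peak, 575 bp from the Ros1 start (chr10:52192657-52196105), had 9.12 CPM in B-ALL alone, 6.20 at TP1 and 3.90 at TP2 in C/D (medians), and -0.32 ± 0.10 at TP1.

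There were 3 late-closing peaks at Bend5, a gene of a BEN-domain repressor that lies within the carboxypeptidase gene Agbl4. The middle one, which holds the first printed PU.1 sequence (chr4:111441751-111443423), had 10.5 CPM in B-ALL alone of C/D (4.54 to 19.9), 8.17 at TP1 (2.38 to 20.7) and 4.92 at TP2 (1.32 to 7.19). In A/B it had 3.39, 3.97 and 2.33 CPM in the same order. It was called lower at TP2 against TP1 in C/D, by 0.89 ± 0.13 (adjusted p = 1.13e-06), and was -0.28 ± 0.12 at TP1 (adjusted p = 0.119). The TP2 libraries of C/D are those of the selection, so the call is a description. The peak upstream (chr4:111399416-111401045) was called lower at TP1 in C/D, by 0.78 ± 0.11 (adjusted p = 1.66e-07), and was 0.13 ± 0.19 in A/B. At TP1 in C/D the B-ALL alone libraries are those of the selection. The third peak (chr4:111455318-111456517) was -0.29 ± 0.11 at TP1 in C/D and fell by 0.68 ± 0.12 at TP2 against TP1. In A/B the middle and the third peak also fell at TP2 against TP1, by 0.80 ± 0.13 and 0.79 ± 0.12 (adjusted p = 1.47e-05 and 3.21e-06), and both were called lower at TP2 against B-ALL alone. The 2 other tested peaks of the span had a median of 0.00 in the contrast of the selection.

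Among the members with named genes were the R-spondin receptors Lgr4 and Lgr5 and the R-spondin Rspo3, set together here after their values were seen. The promoter of Lgr4 (chr2:109917100-109919140) had 10.6 CPM in B-ALL alone of C/D (4.58 to 25.4), 8.83 at TP1 (3.34 to 16.9) and 5.74 at TP2 (2.17 to 9.08), and in A/B 37.2, 39.9 and 39.3 CPM. Within each arm the highest C/D library lay under the lowest A/B library, at 25.4 against 29.3 CPM in B-ALL alone, 16.9 against 25.7 CPM at TP1 and 9.08 against 19.5 CPM at TP2. At TP1 it was -0.39 ± 0.10 in C/D and 0.10 ± 0.10 in A/B. The peak at Lgr5, another R-spondin receptor, had 10.9, 8.24 and 6.87 CPM in the 3 arms of C/D (medians, B-ALL alone first) and 4.17, 4.30 and 4.49 CPM in A/B. A peak in Rspo3, which encodes an R-spondin, 1263 bp from its start (chr10:29532923-29536285), had 13.4, 11.8 and 8.09 CPM in C/D and 5.51, 6.22 and 5.06 CPM in A/B. None of these 3 was called at TP1 in C/D.

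**Figure D4:**
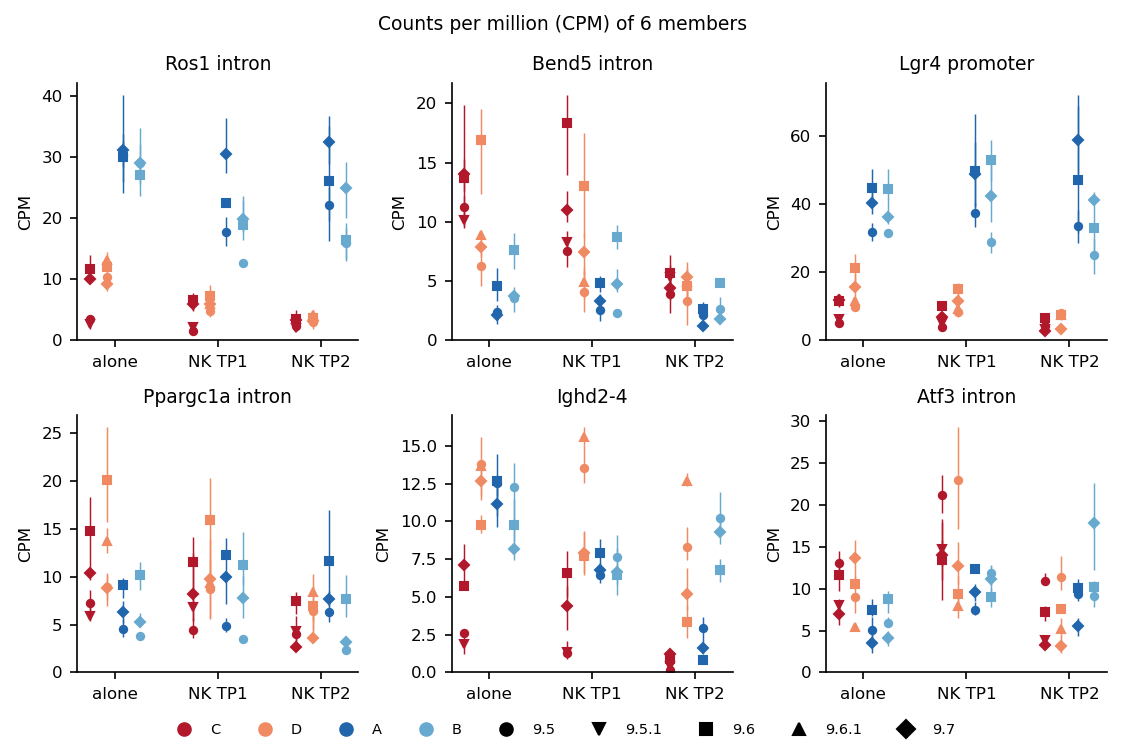
CPM (y axis) of 6 late-closing peaks in the 3 arms (x axis), as means over the libraries of each combination with lines from the lowest to the highest library (red C, orange D, dark blue A, pale blue B; symbols give the experiment). At Lgr4 and Ros1 the A/B combinations lie above the C/D combinations, and at Atf3 most combinations are higher at NK TP1 than alone.

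The deepest mean fall of the C and D selection values was at the Igh locus. The peak over Ighd2-4 (chr12:113470615-113473704) had 8.48 CPM in B-ALL alone of C/D (1.196 to 15.5), 6.66 at TP1 (0.890 to 16.2) and 1.87 at TP2 (0 to 13.2). Its TP2 difference was -1.98 in C and -0.86 in D, and in A, which the selection allowed, -2.59, with -0.18 in B. Experiments of line D differed widely, with TP2 medians of 12.5 CPM in 9.6.1, 7.94 in 9.5, 4.52 in 9.7 and 3.35 in 9.6. In A/B it fell by 0.75 ± 0.18 at TP1 (adjusted p = 0.000854), and without experiment 9.5 the change was -0.64 with adjusted p = 0.0624.

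The next peak, over Ighd2-3 (chr12:113475270-113477359), went the other way in line A and was singled out for this after its values were seen. Its TP2 difference was -1.03 in C and -0.70 in D, on which it was selected, 1.198 in A and -0.51 in B, and in line A it was above 0 in 3 of 3 experiments. The unselected peak nearest Ighd2-5 (chr12:113466116-113467849) was -2.50 in A, -0.09 in B, 0.02 in C and 0.05 in D. The peak at Ighj4, among the J segments, lay between -0.16 and 0.16 in the 4 lines. Of the 50-base stretches of the Ighd2-4 peak, 5.26% also occur in the Ighd2-3 peak and 7.23% in the Ighd2-5 peak. Only exact matches among 4 of these peaks were counted, and the part of shared reads in the values was not tested. The rearrangements these cells carry were not analysed here, and their part in the values was not tested.

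In or near Atf3, a stress-induced transcription factor, 2 late-closing peaks had higher medians at TP1 than in B-ALL alone. The start site nearest to both was that of Fam71a, 8257 bp from the peak in the Atf3 intron. The intronic peak (chr1:191171751-191174397), had 9.91 CPM in B-ALL alone of C/D (5.12 to 15.8), 13.7 at TP1 (6.44 to 29.3) and 6.35 at TP2 (2.3 to 13.9). In A/B it had 5.47 CPM in B-ALL alone (2.35 to 9.71), 10.2 at TP1 (6.80 to 12.9) and 10.0 at TP2 (4.34 to 22.6). It rose at TP1 in A/B by 0.80 ± 0.13 (adjusted p = 2.19e-06) and was 0.50 without experiment 9.7, it was 0.58 ± 0.11 in C/D (not called), and at TP2 against TP1 it fell by 1.25 ± 0.12 in C/D (adjusted p = 1.27e-12). The neighbouring peak (chr1:191166048-191171356), named after its values were seen and the 1 called higher at TP1, rose by 0.74 ± 0.11 at TP1 in C/D (adjusted p = 1.91e-07), had 19.4, 26.8 and 11.2 CPM in the 3 arms of C/D, and fell by 1.39 ± 0.11 at TP2 against TP1. A peak 8.60 kb from the start of Cd69, an early activation antigen of lymphocytes (chr6:129265191-129268345), also named afterwards, had 25.2 CPM in B-ALL alone, 32.6 at TP1 and 14.0 at TP2 in C/D. It was 0.46 ± 0.09 at TP1 and fell by 1.14 ± 0.10 at TP2 against TP1. These falls at TP2 against TP1 in C/D share the TP2 libraries with the selection and are a description.

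Of the signalling genes, Rasgrp3, an exchange factor that loads Ras with GTP, held a late-closing peak (chr17:75441966-75443645) with 8.55 CPM in B-ALL alone of C/D (4.34 to 13.4), 6.22 at TP1 and 5.33 at TP2, and with 9.58, 7.16 and 5.25 CPM in A/B. It was -0.25 ± 0.11 at TP1 in C/D (adjusted p = 0.163) and -0.50 ± 0.14 in A/B (adjusted p = 0.00422), under the fold needed for a call. At Skap1, an adaptor protein of T cells, the intronic peak (chr11:96641892-96642971) fell by 1.0 ± 0.13 at TP1 in A/B (adjusted p = 1.42e-09) and was -0.56 ± 0.10 in C/D (adjusted p = 1.72e-05), with 4.96, 3.16 and 2.98 CPM in the 3 arms of C/D and 6.36, 3.27 and 3.10 CPM in A/B. At Marcks, a substrate of protein kinase C, the peak (chr10:37136133-37140638) had the highest mean CPM of the 169, with 51.0 CPM in B-ALL alone of C/D, 47.0 at TP1 and 29.0 at TP2, and 18.4, 21.1 and 15.1 CPM in A/B. The peaks of Stk17b, a kinase of lymphocytes, named after their values were seen, spanned chr1:53753422-53766489, were 0.03, 0.03 and 0.07 at TP1 in C/D and fell by 1.04, 0.94 and 0.82 at TP2 against TP1. Those falls share the TP2 libraries with the selection.

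Other members lay at genes of metabolism, ion transport and gene control. At Ppargc1a, a coactivator of mitochondrial genes, the peak 1234 bp from the start (chr5:51551090-51554184) had 10.2 CPM in B-ALL alone of C/D, 8.14 at TP1 and 4.45 at TP2, and 5.90, 8.21 and 6.54 CPM in A/B. The peak in Kcnk9, a potassium channel gene (chr15:72502676-72504884), had 13.04, 8.90 and 5.90 CPM in C/D and 3.67, 2.49 and 2.74 CPM in A/B, and fell by 0.67 ± 0.13 at TP1 in A/B (adjusted p = 3.33e-05), a change of -0.56 and no call without replicate 2. In C/D at TP1 it was -0.52 ± 0.08, under the fold needed. At Ggh, which encodes an enzyme that trims folates, the promoter peak (chr4:20041384-20042862) had 8.57, 7.82 and 4.58 CPM in C/D and 10.8, 13.5 and 14.7 CPM in A/B, and was above 0 at TP2 in 6 of 6 A/B combinations. The exonic peak in Neat1, a nuclear RNA that builds paraspeckles (chr19:5836786-5837413), had 2.94, 2.79 and 1.198 CPM in C/D, with a highest TP1 library of 16.3 CPM.

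Of the 14 peaks called lower at TP1 in C/D, others lay in Zfhx4 and far from genes. That contrast shares its B-ALL alone libraries with the selection, so its values are a description. The peak in Zfhx4, a homeobox gene (chr3:5318643-5320150), fell by 0.84 ± 0.11 (adjusted p = 3.38e-09), with 5.37, 2.75 and 2.16 CPM in the 3 arms of C/D and 8.53, 6.52 and 6.19 CPM in A/B. A peak between genes on chromosome 18 (chr18:85465996-85467882) fell by 0.74 ± 0.12 (adjusted p = 1.63e-06), and one on chromosome 7 (chr7:113621517-113622756) by 0.68 ± 0.15 in C/D and by 0.67 ± 0.22 in A/B, where 5 alternative settings ended the call. A peak between genes on chromosome 14 (chr14:97773089-97776018) fell by 0.58 ± 0.13 (adjusted p = 0.000804), a call that 7 settings ended. The peaks at Opcml, a cell adhesion gene (chr9:27727455-27730297), in Gm41206 (chr14:72821161-72823464) and near Gm37910 (chr14:103949373-103951095) were at -0.43 ± 0.10, -0.43 ± 0.09 and -0.29 ± 0.11 at TP1 and fell by 0.88, 0.69 and 0.92 at TP2 against TP1. Their falls against TP1 share the TP2 libraries with the selection.

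Further promoter members showed smaller values at TP1. In C/D the peaks at Msrb3, a methionine sulfoxide reductase (chr10:120872302-120874480), Brdt, a bromodomain protein of the testis (chr5:107359032-107360476), Sytl2, a vesicle transport protein (chr7:90302073-90304019), and Rbms3, an RNA-binding protein (chr9:117251077-117253889), were -0.40 ± 0.09, -0.19 ± 0.09, -0.26 ± 0.09 and -0.14 ± 0.09, and none was called. The Rbms3 start had 9.14, 7.89 and 5.48 CPM in C/D and 33.9, 30.5 and 26.2 CPM in A/B, without overlap between the pairs of lines in any arm. A peak on chromosome 13 (chr13:44068766-44069152) was called lower in A/B at TP1 (-0.58 ± 0.21, adjusted p = 0.0313), but was 0.04 without experiment 9.5.

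Over all tested peaks, 169 of 110249 were late-closing, and the counts in lists of genes are set beside this with nothing read from them. B cell identity and pre-BCR genes had 1 late-closing peak among 335 tested peaks and genes of STAT5 and RAS output 1 among 292, in each list the one at Rasgrp3, which stands in both lists. The neural guidance and junction list had 3 among 281 (1.07%), at Cntn5, Csmd3 and Opcml. There were 0 among 233 peaks of interferon-induced genes, 0 among 139 of ligands and adhesion in NK recognition, 0 among 121 of killing inhibitors and apoptosis genes, and 0 among 274 of haematopoietic progenitor and lineage factors. Markers of NK, T, myeloid and erythroid cells and housekeeping genes held 0 among 37, 50, 51, 27 and 43 peaks. The nearest start site is a position and not a target.

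Late-closing peaks lay farther from start sites than all tested peaks, as did the peaks that closed in A and B. The median distance to the nearest start site was 12200 bp in the late-closing peaks, against 6528 bp over all tested peaks. It was 11600 bp in the peaks that closed in A and B. Of the late-closing peaks 25.4% (43 peaks) were within 3 kb of a start site, against 33.5% of all tested peaks. By feature 42.0% were intergenic, against 34.9%, 48.5% intronic, against 50.1%, and 9.47% exonic, against 15.1%. They were wider, with a median of 1618 bp against 1290 bp, were of similar signal, with 3.36 CPM against 2.92 CPM, and had less GC, 44.0% against 49.6%. In the peaks that closed in A and B the medians were 1662 bp, 5.72 CPM and 49.0%. The chromosomes with the largest share of tested peaks among the late-closing peaks were 10 (0.292%), 18 (0.281%) and 14 (0.276%), and the smallest was on chromosome 11 (0.0473%). On none of these did the median of all tested peaks at TP2, taken as the middle of the 8 C/D combinations, leave the range from 0.00 to 0.08. Single combinations spread widely, on chromosome 14 from -0.49 in line D and -0.35 in line C of experiment 9.7 to 0.23 in line D of experiment 9.5. Members within 100 kb of each other formed 19 sets, among them those at Stk17b, Bend5, Ros1, Atf3, Neat1, Fndc3a, Dock9, Nbea, Emb, Agbl1 and Tusc3.

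The motifs printed above were more common among late-closing peaks. Within the central 500 bp, on either strand, TTCNNNGAA lay in 42 peaks, or 24.9% (95% Wilson interval 18.9% to 31.9%), against 13.6% of all tested peaks and 16.4% of the peaks that closed in A and B. GAGGAAGT lay in 26, or 15.4% (10.7% to 21.6%), against 6.19% and 10.5%. Since the late-closing peaks had less GC, both were also counted among peaks with 40.6% to 48.6% GC, where the shares were 25.9% against 16.3% and 18.8% against 7.39%. The ETS core CAGGAA, which GAGGAAGT does not contain, was at 58.0% against 48.5%. The CTCF core AGGGGGC was at 4.14% against 10.5%, the RUNX motif TGTGGTT at 18.9% against 12.9%, and the interferon-stimulated response element at 9.47% against 6.44%, and within the GC range these last 2 were at 17.6% against 16.98% and 8.24% against 9.03%. The MEF2 motif TAAAAATA was at 8.88% against 4.71% and the FOX motif GTAAACA at 9.47% against 5.56%. Within the GC range they were at 9.41% against 7.29% and 10.6% against 7.40%. A match is a stretch of letters and was not tested for binding.

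**Figure D5:**
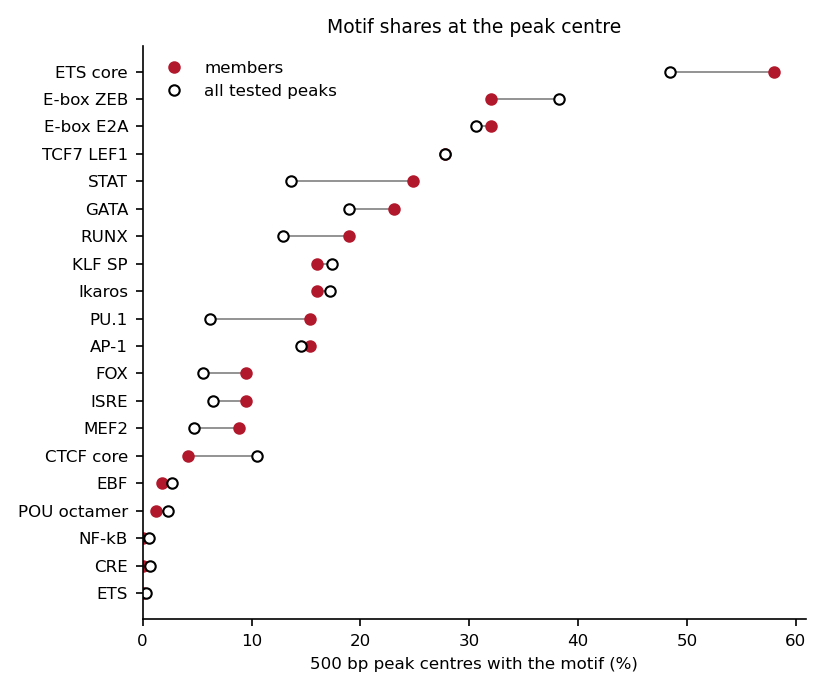
Share of peaks (x axis, %) whose central 500 bp holds each of 20 motifs on either strand (y axis), for the late-closing peaks (filled) and all tested peaks (open). The STAT motif is at 24.9% against 13.6%, PU.1 at 15.4% against 6.19% and the CTCF core at 4.14% against 10.5%.

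Experiment 9.7, sampled on days 6 and 16, was set against the other experiments in C/D, a difference the selection averaged over. Its TP2 effect was higher at 21 late-closing peaks and lower at 18, beside 13.9% and 24.3% of all tested peaks, and the median difference was 0.01 against -0.14. With column sums the numbers were 7 and 36, with size factors 25 and 12 and with a loess offset 29 and 14, without replicate 1 they were 21 and 9 and without replicate 2 13 and 23. The median of all tested peaks was -0.36, -0.04 and -0.07 with column sums, size factors and the loess offset, so the balance of directions depends on the scaling. The effect was higher in 9.7 at Pde4d, a cAMP phosphodiesterase gene (chr13:109788716-109790140, 1.38 ± 0.20, adjusted p = 1.90e-07), Kcnk9 (0.97 ± 0.16) and near Gm13484 (chr2:50734497-50735519, 0.97 ± 0.23). It was lower at Adgrl3, an adhesion receptor gene (chr5:81019418-81022879, -1.203 ± 0.24), and Lgr4 (-1.18 ± 0.20, adjusted p = 2.03e-06). At Lgr4 the TP2 medians in 9.7 were 2.68 CPM in C and 3.08 CPM in D, against 11.8 and 14.2 CPM in B-ALL alone. In the C/D libraries of 9.7 at TP2 the 5000 strongest peaks held a median of 32.5% of counts, against 28.7% in its B-ALL alone libraries, while in the other experiments the medians were 26.0% and 26.6%, and the part of this in the difference was not tested.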

How the data were processed

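The reads were processed by the authors with the Nextflow ATAC-seq pipeline: alignment to GRCm38 with STAR (version not given in the sources used here), duplicates with Picard 2.27.4, broad peaks with MACS2 2.2.7.1. The methods name a blacklist of a human build. The authors deposited raw counts, the read pairs featureCounts assigned to each consensus peak, and broad peaks of each library with their fold enrichment (a ratio to local background, not used here) and −log10 q. Per the file headers a pair counts for each peak that it overlaps by a set fraction, so neighbouring peaks can share pairs. Whether read ends were shifted for Tn5 is not stated; a shift would move ends by a few bases.

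CPM were counts over column sums. Near-identical libraries (2 pairs, chi-square over degrees of freedom 0.832 and 0.863) were averaged for the fits, while the selection used every library. Counts were fitted with edgeR 4.0.16 (quasi-likelihood F-test, TMM scaling, factors 0.809 to 1.175) in R 4.3.3, C/D apart from A/B as in the study, with 1 term per combination of line and experiment; the SE is the fold change divided by the root of F. The study calls its replicates biological, but nothing ties them to separate animals, so p-values reflect only how these samples spread, in part perhaps technically. The fit was tested on simulated counts. DESeq2 1.42.0, other scalings and filters, and leaving out replicates or experiments were alternatives. Named members (37) were the 12 of deepest fall, 12 strongest near start sites, those of listed genes, those called in A/B at TP1, between pairs and between experiments, and those around the threshold; others are said to be named afterwards. Members, lists and tests were chosen with earlier results of these data known. Intervals cover counting error only. Start sites are those of GENCODE M21, and sequences those of RefSeq on GRCm38.p6. One marker gene is not reported here.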

Additional observations from a re-analysis of the deposited data

Results flagged for a closer look

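The change from B-ALL alone to NK TP2 in C/D was set between experiment 9.7, with TP2 on day 16, and the other experiments, with TP2 on day 10. By the edgeR contrast of the difference itself, it differed at 39 of the 169 late-closing peaks. As a share this was below that over all tested peaks, of which 13.9% were higher and 24.3% lower. The 5 with the smallest adjusted p had differences of 1.38 at Pde4d, -1.203 at Adgrl3, -1.18 at Lgr4, 0.97 at Kcnk9 (nearest start site Gm24390) and 0.97 near Gm13484, each called under all 11 alternative settings run for it. At Lgr4 the C/D libraries of 9.7 were lower at TP2, with 2.68 CPM in C and 3.08 CPM in D, than those of 9.6, with 5.86 CPM in C and 7.78 CPM in D (medians). Day of sampling, and anything else that set 9.7 apart, cannot be told apart. No library's median over the late-closing peaks stood outside its group of line and arm in A or B, where groups of 9 libraries could be examined. The larger groups of C and D, the lines of the selection, were not examined in this way. In line D of 9.6 at TP2, replicate 2 had a chi-square over degrees of freedom of 7.285 against replicate 1 and 6.606 against replicate 3. Between replicates 1 and 3 it was 1.299.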

How the results depend on the processing

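The number of late-closing peaks, 169, became 6 at a threshold of -1, 25 with a pseudocount of 2 and 278 without experiment 9.5.1, and 168 to 223 without a replicate. The peaks themselves changed more than their number. Of the 169, 119 to 136 were selected again without a replicate. Without an experiment 90 to 160 were, the fewest without 9.7 (90) and 9.6 (91). The peaks called (either direction) in C/D at TP1, 15, became 8 with a mean CPM of 2 or more, 24 without experiment 9.6 and 23 without 9.7, and 12 to 21 without a replicate. In C/D at TP2 against TP1, 94 became 60 with a mean CPM of 2 or more, which tests fewer peaks, 54 without 9.6, and 52 to 107 without a replicate. In A/B at TP1, 7 became 17 without 9.6, 14 without 9.7 and 9 to 11 without a replicate. In A/B at TP2, 39 became 24 with a mean CPM of 2 or more, and 28 to 39 without a replicate. The other counts without a replicate were 160 to 168 in C/D at TP2, 88 to 101 between pairs and 27 to 36 between experiments. With 50% overlap, broad peaks covered a median of 6 late-closing peaks at TP2 and 21 in B-ALL alone of C/D, and with −log10 q of 2 or more, 39 and 86. Except for the mean CPM filter, the cause was not tested.

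Over all tested peaks, 1758 were higher and 295 lower in C/D at TP1, and 1975 and 86 with a loess offset; the number lower was 79 with a mean CPM of 2 or more and 723 without 9.5.1. The split at TP2 against TP1, 1265 higher and 789 lower, was 504 and 1278 with a loess offset. Of 61 values of named peaks, 43 kept their call in every setting and 1 reversed, the peak on chromosome 13 near Gm33630 in A/B at TP1 (0.043 without experiment 9.5).

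The correlations of same-numbered replicates ran from -0.344 to 0.416 (124 pairs, median 0.0175, own number the best in 48). They were over 0.1 in all 3 pairs of some groups (line D of 9.6 between B-ALL alone and TP2, line B of 9.7 between TP1 and TP2, line C of 9.6 between B-ALL alone and TP1) but not in every pair, so the numbers were not taken as pairs. With a replicate block the counts were 17 in C/D at TP1, 168 at TP2, 93 at TP2 against TP1, 8 and 39 in A/B at TP1 and TP2 and 37 between experiments. The comparison between pairs within the TP1 arm was run without a block.

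At the depth of these libraries 39 late-closing peaks averaged under 2 CPM, where a library holds few reads.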
